A study of Homo sapiens with 18 samples.

Results

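The matrix metalloproteinases (MMP), the ADAM and ADAMTS proteinases and the tissue inhibitors of metalloproteinases (TIMP) were examined in MDA-MB-231, an established line of human triple-negative breast cancer cells. Members were all protein-coding genes whose symbol is the family name followed by a number. There were 65 of them, comprising 22 MMP, 20 ADAM, 19 ADAMTS and 4 TIMP genes, among 62703 genes per library, of which 20015 are protein-coding. Polyadenylated RNA was sequenced in 10 distinct libraries, 2 in each of 5 groups. In the knockdown experiment, cells were transduced with lentivirus for 24 h and selected with 2 ug/ml puromycin for 72 h. The lentivirus carried a Control shRNA, a hairpin against the methyltransferase EZH2 (shEZH2) or a hairpin against the transcription factor E2F1 (shE2F1). The drug experiment treated cells for 72 h with either DMSO, the solvent, or GSK126, an inhibitor of EZH2 methyltransferase activity, at 1 uM. No second hairpin against either target was analysed here, and the drug experiment used cells that carried no hairpin. The labels do not state whether the 2 libraries of a group came from separate cultures, so that p-values measure the spread between these libraries, which may be technical.

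MMPs, ADAMs and ADAMTSs are zinc-dependent proteinases of the metzincin clan. Most MMPs are secreted as inactive precursors and cut collagens and other matrix proteins, whereas the membrane-type MMPs are tethered to the cell surface. ADAMs are membrane proteins, the catalytic members of which release the outer parts of growth factors, cytokine receptors and adhesion molecules, while several ADAMs lack a working catalytic site and act in adhesion. ADAMTSs are secreted and carry thrombospondin repeats, and they cut proteoglycans, procollagens, fibrillin-related proteins or von Willebrand factor. TIMPs bind the active site of these enzymes and block it. In breast cancer these families are studied chiefly for matrix invasion and for the shedding of ligands of the EGF receptor.

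Because the comparisons turned mainly on MMP14, ADAM17, ADAM19, ADAMTS6 and ADAM15, the 250 bases before the RefSeq start of each are shown to display how different their promoters are. Sequences are from RefSeq (GRCh38.p14), read 5' to 3' on the strand of the gene, and capitals mark CpG dinucleotides. The windows are chr14:22836335-22836584 (plus strand) for MMP14, chr2:9555831-9556080 (minus) for ADAM17, chr5:157575776-157576025 (minus) for ADAM19, chr5:65481921-65482170 (minus) for ADAMTS6 and chr1:155051066-155051315 (plus) for ADAM15.
MMP14: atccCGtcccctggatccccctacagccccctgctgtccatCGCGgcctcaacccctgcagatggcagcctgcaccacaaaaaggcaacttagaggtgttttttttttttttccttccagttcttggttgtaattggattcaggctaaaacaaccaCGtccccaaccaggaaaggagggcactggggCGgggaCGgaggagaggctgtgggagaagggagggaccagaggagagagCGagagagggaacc
ADAM17: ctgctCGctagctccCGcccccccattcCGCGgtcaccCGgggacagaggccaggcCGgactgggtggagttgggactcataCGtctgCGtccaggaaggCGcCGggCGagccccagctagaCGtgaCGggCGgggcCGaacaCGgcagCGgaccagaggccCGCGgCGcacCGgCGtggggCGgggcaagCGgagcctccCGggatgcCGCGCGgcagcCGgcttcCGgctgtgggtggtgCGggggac
ADAM19: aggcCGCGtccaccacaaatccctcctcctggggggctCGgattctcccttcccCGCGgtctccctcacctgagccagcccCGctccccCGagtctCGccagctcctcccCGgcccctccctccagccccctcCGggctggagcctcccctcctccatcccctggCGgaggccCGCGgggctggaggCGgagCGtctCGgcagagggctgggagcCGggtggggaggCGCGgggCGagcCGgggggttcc
ADAMTS6: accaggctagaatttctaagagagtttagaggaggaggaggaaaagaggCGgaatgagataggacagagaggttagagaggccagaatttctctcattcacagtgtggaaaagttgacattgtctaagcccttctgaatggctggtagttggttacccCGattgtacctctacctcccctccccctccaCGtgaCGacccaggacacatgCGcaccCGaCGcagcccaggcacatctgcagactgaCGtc
ADAM15: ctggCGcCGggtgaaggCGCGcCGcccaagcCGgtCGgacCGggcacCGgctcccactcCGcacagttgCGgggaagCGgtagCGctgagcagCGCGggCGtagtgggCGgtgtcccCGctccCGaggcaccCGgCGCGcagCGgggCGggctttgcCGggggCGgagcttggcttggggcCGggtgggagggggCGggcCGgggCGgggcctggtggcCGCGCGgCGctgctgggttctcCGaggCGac

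The MMP14 window held 7 CpG and was 56.8% G or C, and the ADAMTS6 window held 8 CpG at 52.4%. By contrast, the ADAM19 window held 21 CpG, that of ADAM17 held 31 and that of ADAM15 held 36, at 76.4%, 75.6% and 79.6% G or C. The first 4 of these genes were higher in shEZH2 and ADAM15 was lower, as described further on, so that genes which rose had promoters poor and rich in CpG.

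RefSeq promoters of 300 bases (250 before and 50 after the start) were matched for 38 of the 65 members, in 39 entries. Among entries of members with a mean of at least 1 TPM over the 10 libraries, the number of CpG ran from 9 to 44 with a median of 28.5 (16 entries). Among members under 1 TPM it ran from 0 to 47 with a median of 15 (23 entries). The letters TATAAA, on the gene strand and anywhere in the 300 bases, were found in 7 entries (17.9%), against 7.33% of all 35116 promoters, and these 7 were MMP7, MMP8, MMP10, MMP20, MMP21, MMP26 and ADAM21. They started at -31 to -28 in MMP7, MMP10 and MMP26, where a TATA box lies, further upstream in MMP8, MMP20 and MMP21, and after the start in ADAM21. All 7 genes were under 1 TPM. The binding motif of AP-1, the FOS and JUN transcription factor (TGANTCA, which is its own reverse complement), was found in 4 entries (10.3%), against 7.71% of all promoters. These were MMP7, MMP10, MMP20 and ADAMTS12. The E2F motifs TTTGGCGC, TTTCCCGC, TTTGCCGC and TTTCGCGC, searched on both strands, were found in 0 entries, against 3.31% of all promoters.

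MMP7 and MMP10 are shown as examples of the promoter type known for secreted MMPs, with the AP-1 motif starting at -67 in both and TATAAA at -30 and -31. The 80 bases before each start (chr11:102530748-102530827 and chr11:102780629-102780708, minus strand) carry these motifs in capitals.
MMP7: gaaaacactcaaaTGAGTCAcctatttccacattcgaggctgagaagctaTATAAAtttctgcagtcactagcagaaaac
MMP10: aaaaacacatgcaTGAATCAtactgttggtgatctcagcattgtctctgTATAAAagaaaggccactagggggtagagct
In these cells MMP7 had 1 count in 2 libraries and MMP10 had 1 count in 2 libraries, and neither had a count in the other libraries.

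Levels of different genes were compared in TPM, transcripts per 1000000 transcripts, which accounts for gene length. Of the 65 members, 14 had a mean of at least 10 TPM, 12 had a mean from 1 to under 10 TPM, 27 were under 1 TPM with at least 1 count, and 12 had 0 counts in all 10 libraries. A count of 0 allows up to 0.150 to 0.227 counts per 1000000 counts (CPM) in a library, by counting error only. The 12 genes without a count were ADAM2, ADAM7, ADAM18, ADAM23, ADAMTS5, ADAMTS10, ADAMTS18, ADAMTS19, MMP12, MMP20, MMP26 and MMP27. TIMP1, a secreted inhibitor of many MMPs, was the most abundant member over all libraries (492 to 823 TPM), followed by TIMP2 (238 to 398 TPM). MMP14, the membrane-type collagenase also called MT1-MMP, ranked 3 and was the only MMP with a mean of at least 10 TPM. Among the ADAMs, 6 reached that level, namely ADAM10, ADAM9, ADAM15, ADAM8, ADAM17 and ADAM19. Among the ADAMTSs, 4 did, namely ADAMTS15, ADAMTS12, ADAMTS16 and ADAMTS6.

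**Figure D1:**
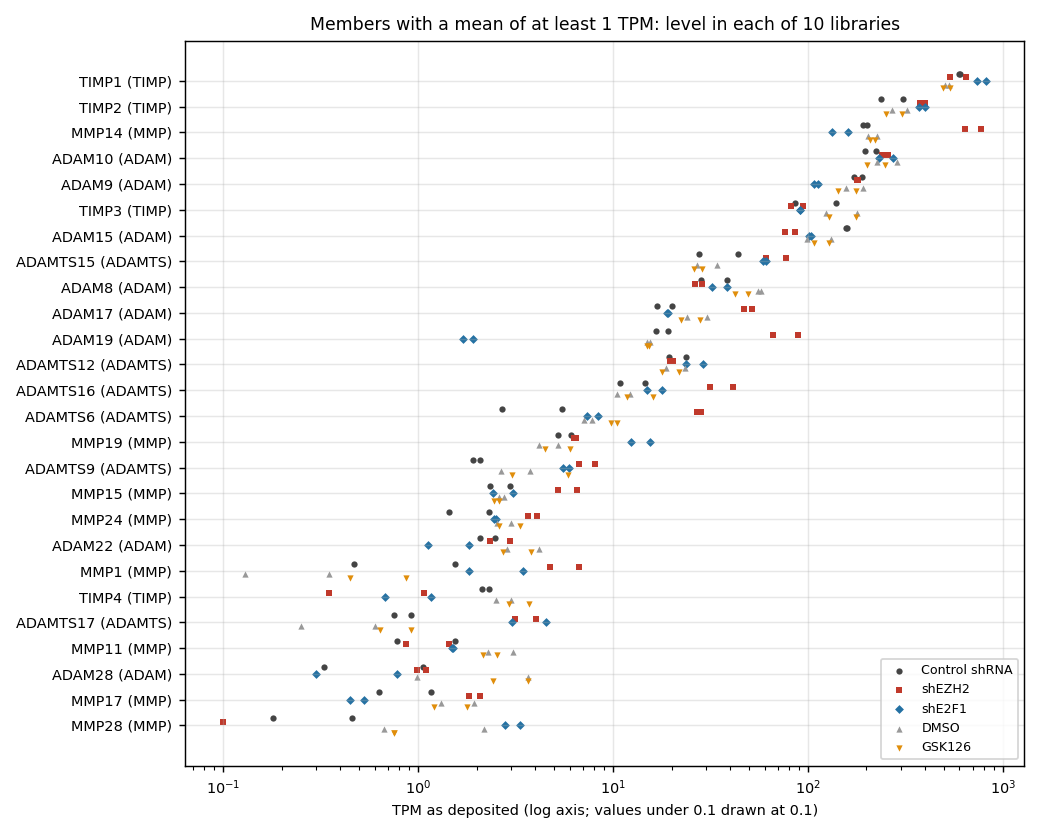
TPM (log axis, values under 0.1 drawn at 0.1) of the 26 members with a mean of at least 1 TPM, ordered by that mean, with 1 point for each of the 10 libraries coloured by group. TIMP1, TIMP2 and MMP14 lie at the top, the shEZH2 libraries stand to the right of the others for MMP14, ADAM17, ADAM19, ADAMTS16 and ADAMTS6, and the shE2F1 libraries stand far to the left for ADAM19.

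The secreted collagenases and gelatinases were low or not detected. Of the 9 MMP genes in the cluster on chromosome 11 (102520508-102955732, GRCh38, 435 kb), 3 had no count. MMP1, the interstitial collagenase, was the only one of the 9 above 1 TPM in any library, and the other 8 did not exceed 0.75 TPM. MMP2, a gelatinase that MMP14 activates, had 0 to 7 counts per library. MMP9, the other gelatinase, had 0 to 6 counts in 9 libraries and 30 counts in shEZH2 replicate 2. Neither gelatinase passed the filter on low counts, so no change was tested for them.

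Before the members were compared, the targets of the hairpins were checked. EZH2 fell from 90.8 and 102 TPM in control libraries to 31.9 and 26.5 TPM in shEZH2 (log2 change -1.79, SE 0.12, adjusted p = 2.40e-06, edgeR). E2F1 fell from 81.6 and 74.7 TPM to 16.1 and 14.6 TPM in shE2F1 (log2 change -2.54, SE 0.24, adjusted p = 1.52e-05). E2F1 was also lower in shEZH2, at 40.1 and 20.02 TPM (log2 change -1.59, SE 0.23, adjusted p = 1.72e-04). Of the markers expected to be high in the line, VIM (vimentin) ran from 1185 to 2860 TPM and was lower in shEZH2 (log2 change -1.33). CD44 ran from 446 to 659 TPM and ZEB1 from 11.8 to 31.4 TPM. Of those expected to be low or absent, the hormone receptor genes ESR1 and PGR did not exceed 0.17 TPM. ERBB2, which encodes the receptor HER2, was not absent, at 20 to 35.6 TPM, and was lower in shEZH2 without a call (log2 change -0.73). Among markers of other cell types, PTPRC (leukocytes) and PECAM1 (endothelium) stayed at or under 0.72 TPM and DCN (fibroblasts) was at 0 in all 10 libraries. LUM (fibroblasts) ran from 0.12 to 0.48 TPM in control and from 2.07 to 6.05 TPM in the knockdown libraries, and its part in the results was not tested. Over the list of 12 markers, 8 were tested, and 2 were called higher and 1 lower in each knockdown. Besides LUM, the epithelial cadherin CDH1 was higher, at 0.26 and 0.42 TPM in control, 2.76 and 1.39 TPM in shEZH2 (log2 change 2.23) and 4.5 and 2.25 TPM in shE2F1 (log2 change 3.91). The epithelial marker EPCAM was lower in shE2F1, from 26.2 and 26.8 TPM to 13.5 and 12.4 TPM (log2 change -1.24). In bulk RNA, a change in the share of cells and a change in RNA per cell cannot be told apart.

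Changes between groups are given as CPM scaled by TMM, a scaling that sets most genes level between libraries, because on the TPM scale the median gene shifted by 0.16 (shEZH2) and 0.17 (shE2F1) on the log2 scale against the control. Log2 changes printed beside TPM levels are on the CPM scale too, so they can differ from the ratio of those TPM. A member was called when its Benjamini-Hochberg adjusted p over all genes tested was under 0.01 in the quasi-likelihood test of edgeR and its change exceeded 2-fold.

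In shEZH2 against Control shRNA, 34 of the 65 members passed the filter on low counts and 12 were called, 11 higher and 1 lower. The called members were the membrane-type MMP14 and MMP25, the collagenase MMP1, the sheddases ADAM17, ADAM19 and ADAM12, and ADAMTS1, ADAMTS6, ADAMTS9, ADAMTS16 and ADAMTS17, all higher, and ADAM15, which was lower. Of all 15373 genes tested, 7.52% were called higher and 10.7% lower, against 32.4% and 2.94% of the 34 members. The median log2 change was 0.54 over the 34 members and -0.02 over all genes tested. Of the 34 members, 6 had under 10 counts in a control library, and 2 of these (ADAMTS1 and MMP25) were among the called members. Both passed the filter only through shEZH2, the group where they were higher, and both are counted in the 32.4%. A further 4 members passed the p threshold under 2-fold, namely ADAM8 (lower) and ADAMTS15, MMP15 and MMP24 (higher), of which MMP24 was named after its values were seen. The other 18 of the 34 members did not pass, and the 31 members that did not pass the filter could not be tested. With an offset for GC content and length, ADAMTS14, ADAMTS15, MMP15, MMP17 and MMP24 were called higher as well, and ADAM15 and ADAM17 were not called.

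In shE2F1 against the same 2 control libraries, 5 of the 34 members were called. MMP19, MMP28 and ADAMTS9 were higher and ADAM19 and ADAM22 were lower. Of all genes tested, 5.6% were called higher and 5.96% lower, against 8.82% and 5.88% of the 34 members. Of the members called higher, MMP28 had 4 and 2 counts in control and 38 and 35 in shE2F1. It thus passed the filter only through the group where it was high. The median log2 change was 0.13 over the members and 0.00 over all genes tested. Of the 65 members, 1 (ADAMTS9) was called higher in both knockdowns and 1 (ADAM19) was called in opposite directions, and both comparisons used the same control libraries.

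Compared directly, without the control libraries, shEZH2 and shE2F1 differed in 14 of the 34 members. Of these, 11 were higher in shEZH2 (MMP14, MMP15, MMP17, ADAM12, ADAM17, ADAM19, ADAM22, ADAMTS1, ADAMTS6, ADAMTS16 and ADAMTS17) and 3 were higher in shE2F1 (MMP19, MMP28 and ADAMTS8). ADAMTS1, MMP28 and ADAMTS8 passed the filter on low counts only through the group where they were higher. The shares over all genes tested were 10.4% higher and 12.9% lower in shEZH2, and the median log2 difference was 0.46 over the members and -0.02 over all genes. Of the 14 calls, those of ADAMTS1, ADAMTS8 and ADAMTS17 were lost when any 1 of the 4 libraries was left out, and those of ADAMTS1 and ADAMTS8 also with an offset for GC content and length. The calls of ADAMTS16, MMP15, MMP17 and MMP19 were each lost without 1 or more of these libraries, namely shE2F1 replicate 1 for ADAMTS16 and shEZH2 replicate 1 or shE2F1 replicate 2 for MMP19.

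**Figure D2:**
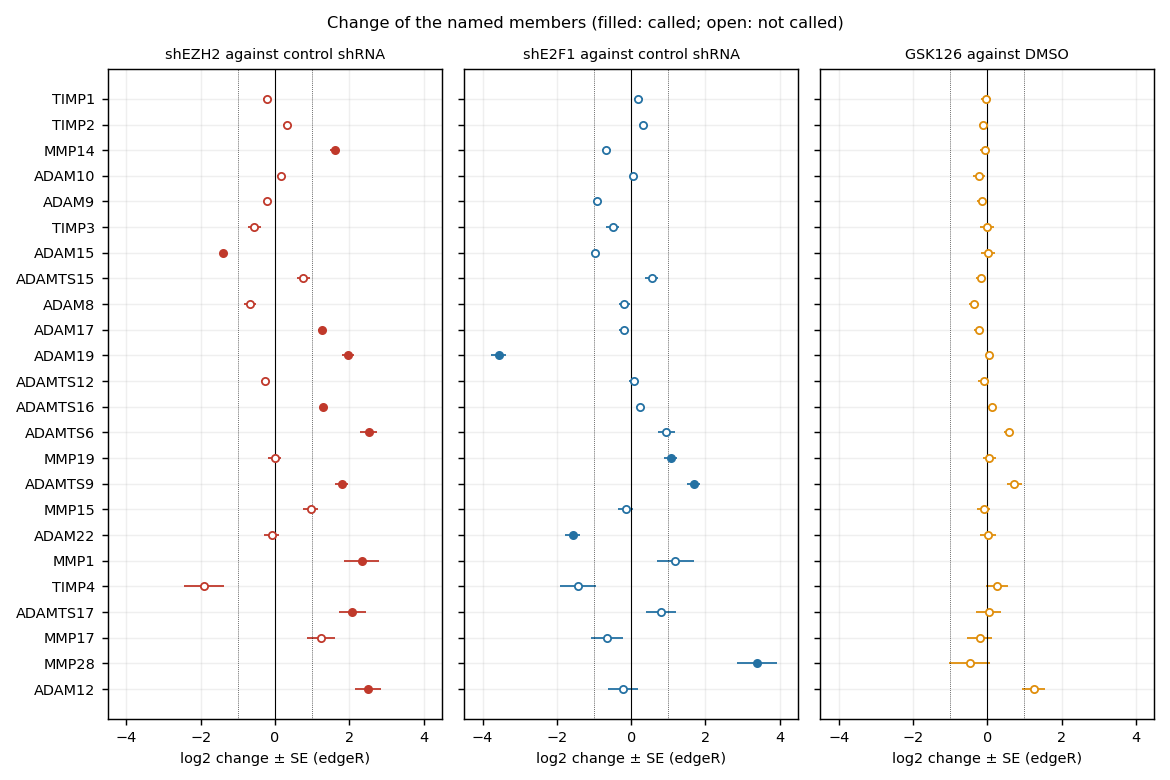
Log2 change with its standard error (edgeR, 2 libraries per group) of the named members that passed the filter, for shEZH2 and shE2F1 against Control shRNA and for GSK126 against DMSO. Filled points were called and open points were not, dotted lines mark 2-fold, and MMP28 in shEZH2, where it had 0 counts, is left out. The filled points lie mostly to the right in shEZH2, ADAM19 lies on opposite sides in the knockdowns, and no point is filled for GSK126.

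MMP14 cuts fibrillar collagen at the cell surface and, with TIMP2 as a bridge, activates the MMP2 precursor. The gene (ENSG00000157227) lies at chr14:22836560-22849041 in GRCh38. The control libraries held MMP14 at 417 and 462 CPM, against 1204 and 1504 CPM in shEZH2 and 255 and 299 CPM in shE2F1. Both shEZH2 libraries lay above and both shE2F1 libraries lay below both control libraries, with no overlap. The change was 3.05-fold in shEZH2 (log2 change 1.61, SE 0.12, adjusted p = 4.24e-06), and leaving out any 1 library kept the call. In shE2F1 the log2 change of -0.67 (SE 0.12, adjusted p = 0.00121) passed the p threshold and stayed under 2-fold. Between the knockdowns MMP14 differed 4.87-fold (adjusted p = 3.12e-07). In TPM, MMP14 exceeded TIMP1 in both shEZH2 libraries, at 643 against 536 and at 774 against 645, and was the most abundant member there.

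The other membrane-type MMPs were much less abundant. MMP15 stood at 7.99 and 6.66 CPM in control, 12.5 and 16.2 CPM in shEZH2 and 6.04 and 7.38 CPM in shE2F1. Its log2 change of 0.96 in shEZH2 (SE 0.20, adjusted p = 0.00182) stayed under 2-fold, but was 1.47 (adjusted p = 7.44e-05) and called with an offset for GC content and length, and the direct difference between the knockdowns was called (log2 1.10, SE 0.20, adjusted p = 6.47e-04). MMP17, which is anchored by a lipid, stood at 2.41 and 2.53 CPM in shEZH2 and at 0.72 and 0.59 CPM in shE2F1 (log2 1.89, SE 0.40, adjusted p = 0.00186 for the direct difference). The calls of MMP15 and MMP17 were lost without shEZH2 replicate 2 or without shE2F1 replicate 1, and that of MMP17 also without shE2F1 replicate 2. MMP25, also lipid-anchored, had 6 and 4 counts in control and 22 and 21 counts in shEZH2, and its call was lost with DESeq2 and when any 1 of these 4 libraries was left out.

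MMP1 stood at 0.58 and 2.04 CPM in control, 5.27 and 7.77 CPM in shEZH2 and 2.11 and 3.83 CPM in shE2F1. The shEZH2 libraries lay above both control libraries (log2 change 2.33, SE 0.48, adjusted p = 0.00180), and the call was lost without shEZH2 replicate 2. In shE2F1 the log2 change was 1.19 (SE 0.50, adjusted p = 0.0728). Both values moved with the control library left out. Without Control shRNA replicate 1 the log2 change was 1.67 in shEZH2 and 0.52 in shE2F1, and without Control shRNA replicate 2 it was 3.47 and 2.32, the last of which was called. Without shE2F1 replicate 2 it was 0.70 in shE2F1. MMP1 was lowest in the drug experiment, with 3 and 8 counts in DMSO and 9 and 19 counts in GSK126, and did not pass the filter there.

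MMP19, a secreted MMP of broad specificity, stood at 10.3 and 8.22 CPM in control, 8.13 and 10.3 CPM in shEZH2 and 18.2 and 20.7 CPM in shE2F1. Only the shE2F1 libraries stood apart (2.09-fold, log2 change 1.06, SE 0.17, adjusted p = 6.50e-04). The change was close to the 2-fold threshold, and the call was lost without Control shRNA replicate 2 and without shE2F1 replicate 2. MMP28, or epilysin, had 4 and 2 counts in control, 0 and 0 in shEZH2 and 38 and 35 in shE2F1. The log2 change in shE2F1 against control was 3.40 (SE 0.54, adjusted p = 7.24e-04), and this call was lost when either shE2F1 library was left out. Set against the level that 3 counts per library would give, MMP28 was at least 9.30-fold higher in shE2F1 than in shEZH2. In the drug experiment MMP28 had 20 and 8 counts in DMSO and 10 and 8 in GSK126.

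ADAM17, or TACE, releases TNF, several EGF receptor ligands and the IL-6 receptor. The gene (ENSG00000151694) lies at chr2:9488486-9556732 in GRCh38. It stood at 53.0 and 47.6 CPM in control, 110.1 and 132 CPM in shEZH2 and 43.7 and 44.1 CPM in shE2F1. The shEZH2 libraries lay above all others (2.39-fold, log2 change 1.26, SE 0.11, adjusted p = 9.03e-06), and in shE2F1 the log2 change was -0.20 (SE 0.11, adjusted p = 0.164), with both libraries below control. The change of genes in shEZH2 was related to their GC content (Pearson r = -0.24 across 15366 genes, which are not independent). With an offset for GC content and length, the log2 change of ADAM17 in shEZH2 was 0.96 and it was not called. ADAM17 overlaps IAH1 on the opposite strand, and IAH1 stood at 58.5 and 58.4 TPM in control and at 57.8 and 47.7 TPM in shEZH2, so that neither shEZH2 library lay above control.

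ADAM10, the main sheddase of Notch receptors, was more abundant than ADAM17 in all 10 libraries, at 197 to 287 TPM against 16.8 to 51.7 TPM. In CPM, it stood at 304 and 319 in control, 333 and 369 in shEZH2 and 308 and 342 in shE2F1. The log2 change was 0.16 in shEZH2 (SE 0.09, adjusted p = 0.168) and 0.05 in shE2F1 (SE 0.09, adjusted p = 0.684). The sign in shEZH2 turned with the offset for GC content and length, to -0.26.

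ADAM19, or meltrin beta, is a sheddase of neuregulins. The gene (ENSG00000135074) lies at chr5:157395534-157575775 in GRCh38. It stood at 61.6 and 72.9 CPM in control, 219 and 312 CPM in shEZH2 and 5.08 and 6.36 CPM in shE2F1. The groups did not overlap in either direction, and the knockdown groups lay on opposite sides of the control. The change was 3.92-fold higher in shEZH2 (log2 change 1.97, SE 0.16, adjusted p = 5.31e-06) and 11.8-fold lower in shE2F1 (log2 change -3.57, SE 0.20, adjusted p = 9.60e-07). The direct difference between the knockdowns was 46.4-fold (log2 5.54, SE 0.20, adjusted p = 8.88e-08). DMSO libraries stood at 55.1 and 54.2 CPM and GSK126 libraries at 57.0 and 56.2 CPM. ADAM19 overlaps the coding gene ENSG00000285868 on the same strand, which had 0 to 3 counts per library, and CYFIP2 on the opposite strand, which had 31 to 88 counts per library against 106 to 5418 for ADAM19.

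ADAM12, or meltrin alpha, is a related sheddase and was far less abundant. It stood at 1.27 and 0.72 CPM in control, 5.12 and 6.45 CPM in shEZH2 and 0.77 and 0.97 CPM in shE2F1. The shEZH2 libraries lay above all other libraries (log2 change 2.51, SE 0.35, adjusted p = 1.50e-04). ADAM22, which lacks catalytic activity and is known as a receptor of the LGI proteins, stood at 8.21 and 7.26 CPM in control, 7.15 and 7.48 CPM in shEZH2 and 2.68 and 2.53 CPM in shE2F1. Here only the shE2F1 libraries were apart (2.98-fold lower, log2 change -1.57, SE 0.21, adjusted p = 1.57e-04).

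ADAM15, a membrane proteinase with an integrin-binding disintegrin domain, was the single member called lower in shEZH2. The gene (ENSG00000143537) lies at chr1:155050566-155062775 in GRCh38. It stood at 230 and 237 CPM in control, 87.9 and 91.6 CPM in shEZH2 and 115 and 122 CPM in shE2F1. All 4 knockdown libraries lay below both control libraries. The change was 2.62-fold lower in shEZH2 (log2 change -1.39, SE 0.09, adjusted p = 1.65e-06) and 1.98-fold lower in shE2F1 (log2 change -0.98, SE 0.09, adjusted p = 1.08e-05), just under the 2-fold threshold. With the offset for GC content and length the change in shEZH2 was -0.95 on the log2 scale and was not called. The 4 drug libraries, at 136 to 182 CPM, also lay below the control shRNA libraries.

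ADAM9 and ADAM8, both catalytically active, passed the p threshold in 1 knockdown each without reaching 2-fold, in the fit without an offset. ADAM9 stood at 528 and 505 CPM in control, 445 and 455 CPM in shEZH2 and 287 and 265 CPM in shE2F1. The log2 change of ADAM9 in shE2F1 was -0.91 (SE 0.09, adjusted p = 1.88e-05), and in shEZH2 it was -0.21 (SE 0.09, adjusted p = 0.0583). With the offset for GC content and length, ADAM9 in shEZH2 was at -0.54 (adjusted p = 4.09e-04), which passed the p threshold under 2-fold. ADAM8 stood at 74.8 and 51.8 CPM in control and 39.4 and 41.0 CPM in shEZH2 (log2 change -0.67, SE 0.15, adjusted p = 0.00361). With the offset for GC content and length this change was -0.14 (adjusted p = 0.330) and did not pass.

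**Figure D3:**
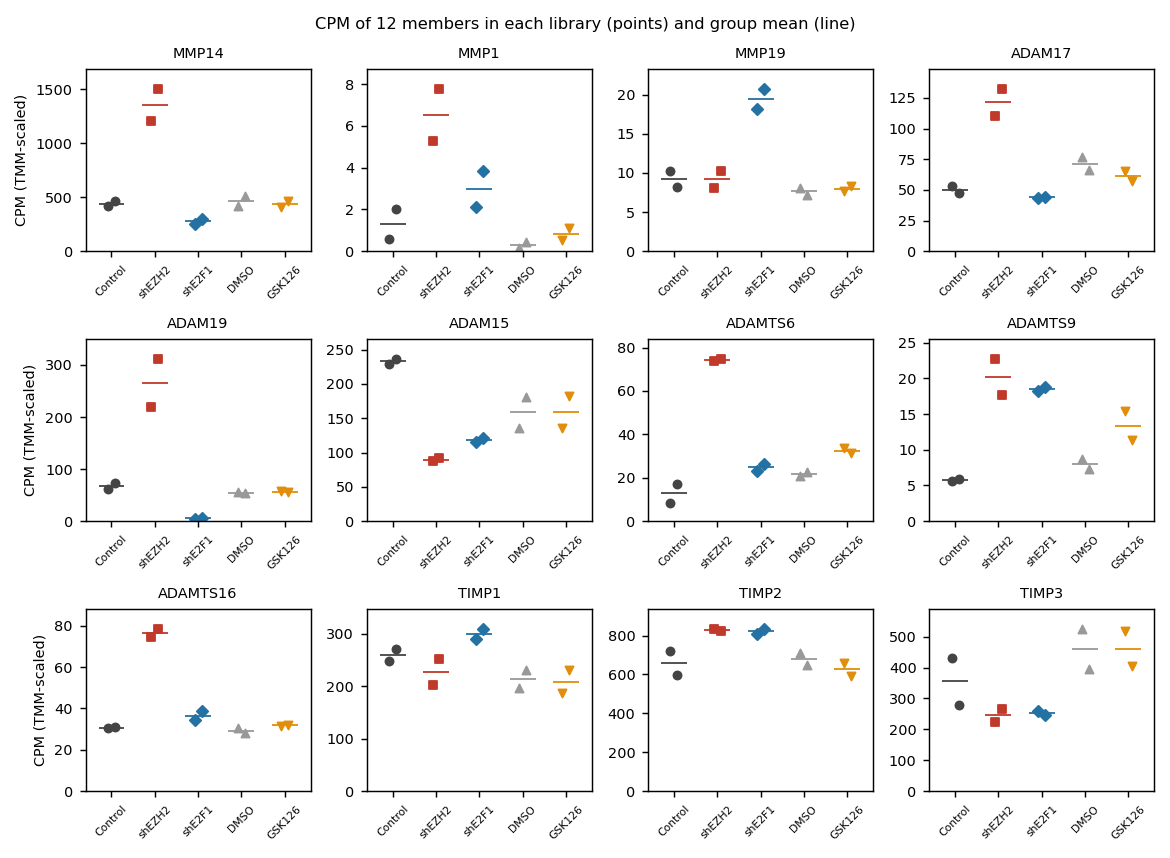
CPM (scaled by TMM) of 12 members in each of the 10 libraries, as points, with the mean of each group of 2 as a line. MMP14, ADAM17, ADAM19, ADAMTS6 and ADAMTS16 are highest in both shEZH2 libraries, MMP19 in both shE2F1 libraries, ADAMTS9 is above control in both knockdowns, and the TIMP panels show smaller differences.

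Among the ADAMTS genes, all 5 that were called in shEZH2 were higher. ADAMTS6, a relative of the fibrillin-associated ADAMTS10, stood at 8.58 and 17.2 CPM in control, 73.6 and 74.8 CPM in shEZH2 and 23.1 and 26.4 CPM in shE2F1. The shEZH2 libraries lay above all other libraries (5.76-fold, log2 change 2.53, SE 0.23, adjusted p = 1.03e-05). In shE2F1 the log2 change was 0.95 (SE 0.23, adjusted p = 0.00717), under 2-fold. ADAMTS16 stood at 30.4 and 31.0 CPM in control, 74.6 and 78.5 CPM in shEZH2 and 34.5 and 38.5 CPM in shE2F1. It was called in shEZH2 (2.47-fold, log2 change 1.31, SE 0.10, adjusted p = 4.60e-06). ADAMTS17 stood at 0.90 and 2.34 CPM in control, 6.32 and 7.37 CPM in shEZH2 and 2.40 and 3.23 CPM in shE2F1. Its log2 change in shEZH2 was 2.09 (SE 0.38, adjusted p = 7.93e-04). In TPM the knockdowns overlapped, at 3.15 and 4.01 in shEZH2 and 3.05 and 4.53 in shE2F1, against 0.75 and 0.92 in control. The difference between the knockdowns in CPM was thus not seen in TPM.

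ADAMTS9 and ADAMTS15 belong to the ADAMTSs that cut hyalectans, the large proteoglycans that bind hyaluronan. ADAMTS9 stood at 5.61 and 5.88 CPM in control, 22.7 and 17.6 CPM in shEZH2 and 18.3 and 18.8 CPM in shE2F1. Both knockdown groups lay above control and overlapped each other, with a log2 change of 1.79 in shEZH2 (SE 0.17, adjusted p = 1.33e-05) and 1.68 in shE2F1 (SE 0.17, adjusted p = 2.64e-05). ADAMTS15, the most abundant ADAMTS, stood at 178 and 119 CPM in control, 221 and 288 CPM in shEZH2 and 228 and 212 CPM in shE2F1. Its log2 change was 0.77 in shEZH2 (SE 0.17, adjusted p = 0.00349) and 0.56 in shE2F1 (SE 0.17, adjusted p = 0.0231). ADAMTS1 had 8 and 5 counts in control, 23 and 25 in shEZH2 and 10 and 9 in shE2F1, and ADAMTS8 had 7 and 1 counts in control, 2 and 1 in shEZH2 and 21 and 12 in shE2F1. The calls of ADAMTS1 and ADAMTS8 were lost with DESeq2 and when any 1 library of the comparison was left out. The hyalectan genes VCAN, ACAN, BCAN and NCAN did not pass the filter in any comparison and did not exceed 0.65 TPM. ADAMTS12, known to cut cartilage oligomeric matrix protein, stood at 93.4 to 135 CPM over the 6 knockdown-experiment libraries, with a log2 change of -0.27 in shEZH2 (SE 0.11, adjusted p = 0.0664). With the offset for GC content and length it was -0.50 (adjusted p = 0.00215), which passed the p threshold under 2-fold.

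None of the 4 TIMP genes was called in any of the 5 comparisons. TIMP1 stood at 248 and 272 CPM in control, 202 and 252 CPM in shEZH2 and 289 and 309 CPM in shE2F1. The log2 change was -0.21 in shEZH2 (SE 0.11, adjusted p = 0.136), with overlapping groups and a sign that turned to 0.24 with the offset for GC content and length, and it was 0.20 in shE2F1 (SE 0.11, adjusted p = 0.173). TIMP2 stood at 719 and 598 CPM in control, 835 and 821 CPM in shEZH2 and 809 and 833 CPM in shE2F1, all 4 knockdown libraries being higher (log2 change 0.32, SE 0.10, adjusted p = 0.0210, and 0.31, SE 0.10, adjusted p = 0.0291). TIMP3, which is bound to the matrix and inhibits ADAM17, stood at 432 and 280 CPM in control, 224 and 266 CPM in shEZH2 and 259 and 248 CPM in shE2F1. Its log2 change was -0.55 in shEZH2 (SE 0.17, adjusted p = 0.0163) and -0.50 in shE2F1 (SE 0.17, adjusted p = 0.0320). TIMP4 had 31 and 27 counts in control, 9 and 4 in shEZH2 and 16 and 8 in shE2F1, with log2 changes of -1.91 (SE 0.54, adjusted p = 0.0120) and -1.43 (SE 0.49, adjusted p = 0.0364).

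Summed over a family, the MMP level was 212 ± 3.65 TPM (SD, n = 2) in control, 736 ± 97.0 TPM in shEZH2 and 175 ± 23.8 TPM in shE2F1. MMP14 alone made up 93.2%, 96.2% and 84.2% of these sums, and without it they were 14.4, 27.9 and 27.7 TPM. The ADAM sum was 624 ± 41.2 TPM in control, 670 ± 38.4 TPM in shEZH2 and 525 ± 32.5 TPM in shE2F1, so that shEZH2 and control overlapped. The ADAMTS sum was 78.2 ± 15.2 TPM in control, 166 ± 2.44 TPM in shEZH2 and 122 ± 6.34 TPM in shE2F1. The TIMP sum was 989 ± 81.4 TPM in control, 1066 ± 69.5 TPM in shEZH2 and 1260.0 ± 75.1 TPM in shE2F1. The ratio of MMP14 TPM to TIMP2 TPM was 0.625 and 0.851 in control, 1.61 and 2.06 in shEZH2 and 0.359 and 0.405 in shE2F1, with no overlap between these groups. In DMSO the ratio was 0.628 and 0.842 and in GSK126 0.686 and 0.885. With 2 libraries against 2, the smallest two-sided p an exact permutation test allows is 0.333, and these sums and ratios are given as descriptions of RNA levels.

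**Figure D4:**
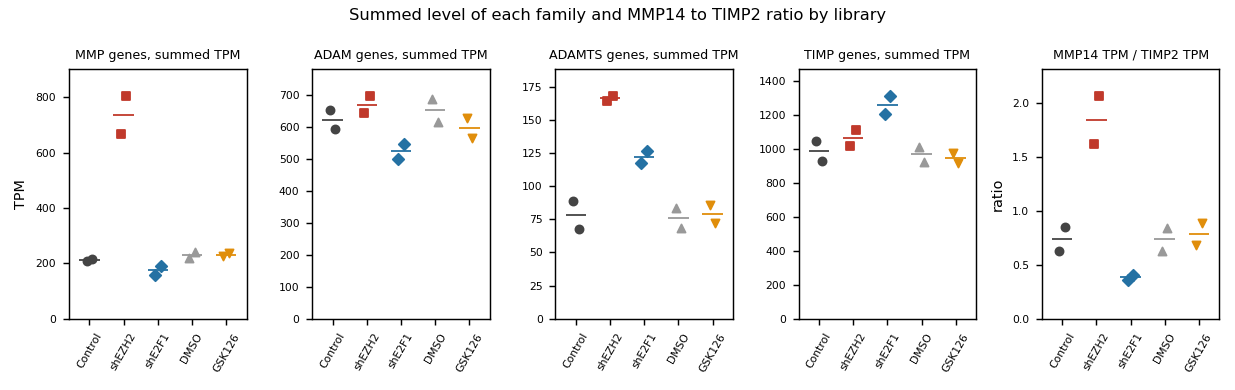
Summed TPM of the MMP, ADAM, ADAMTS and TIMP genes and the ratio of MMP14 TPM to TIMP2 TPM, with 1 point per library and a line at the mean of the 2 libraries of a group, on axes that start at 0. The MMP sum and the ratio are highest in shEZH2 and lowest in shE2F1, the ADAMTS sum is higher in both knockdowns than in control, and DMSO and GSK126 lie close together in all 5 panels.

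In GSK126 against DMSO, 31 members passed the filter and 0 were called by edgeR, as were 0% of all 14632 genes tested. DESeq2 called 0 members and 11 of all genes. The median log2 change was 0.01 over the members and -0.01 over all genes. At an unadjusted p under 0.05 there were 6 members of 31 and 577 of all genes. Over the 14 members with a mean of at least 10 TPM, log2 changes ran from -0.35 (ADAM8) to 0.58 (ADAMTS6). For MMP14, CPM were 416 and 509 with DMSO and 410.5 and 468 with GSK126 (log2 change -0.07, SE 0.13, adjusted p = 1.00), with overlapping groups. ADAM19 differed by 0.05 (SE 0.11) and ADAM17 by -0.22 (SE 0.14) on the log2 scale.

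In both drug replicates alike, 10 of the 31 members were higher with GSK126 and 11 were lower, against 31.2% and 34.2% of all genes tested. Without overlap between the groups, 8 members were higher and 4 were lower, against 15.2% and 13.2% of all genes. Those higher were ADAM12, ADAM19, ADAMTS6, ADAMTS7, ADAMTS9, ADAMTS14, ADAMTS16 and MMP13, and those lower were ADAM8, ADAM17, ADAMTS15 and MMP11. MMP13 passed the filter on low counts only through GSK126, the group where it was higher. For ADAMTS6, CPM were 21.0 and 22.6 with DMSO and 33.8 and 31.3 with GSK126, a log2 ratio of 0.68 in replicate 1 and 0.47 in replicate 2. For ADAMTS9 they were 8.77 and 7.34 with DMSO and 15.4 and 11.4 with GSK126, and for ADAM12 1.15 and 0.96 with DMSO and 2.40 and 2.65 with GSK126. The log2 changes were 0.58 (SE 0.13) for ADAMTS6, 0.73 (SE 0.21) for ADAMTS9 and 1.25 (SE 0.31) for ADAM12, with adjusted p of 0.929, 1.00 and 0.976 without a block. ADAM8 stood at 97.5 and 116 CPM with DMSO and 77.4 and 89.8 CPM with the inhibitor, a log2 ratio of -0.33 in replicate 1 and -0.37 in replicate 2. ADAM17 was lower by similar amounts in both replicates, at -0.23 and -0.22 on the log2 scale. In a fit with the replicate number as a block, which left 1 residual degree of freedom, 68 genes (0.465% of those tested) were called, and ADAM12 was the 1 member among them (log2 change 1.25, adjusted p = 0.00849). At the p threshold alone, a criterion chosen after the data were seen, the block passed 3 members that were higher (ADAM12, ADAMTS6 and ADAMTS9) and 6 that were lower (ADAM8, ADAM9, ADAM10, ADAM17, ADAMTS15 and TIMP2), against 3.64% and 4.32% of all genes. The blocked adjusted p was 1.86e-06 for ADAMTS6, 5.73e-05 for ADAMTS9, 4.19e-07 for ADAM8 and 0.00217 for ADAM17. ADAM17 was thus lower with the inhibitor in this fit and higher in shEZH2, whereas ADAM12, ADAMTS6 and ADAMTS9 were higher in both.

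Whether the hairpin and the inhibitor differed in their effect was tested in a fit of all 10 libraries. Of 36 members tested, 7 were called. The log2 change in shEZH2 exceeded that in GSK126 for MMP14, ADAM17, ADAM19, ADAMTS6, ADAMTS9 and ADAMTS16, and it was below that in GSK126 for ADAM15. Of all 15773 genes tested, 5.13% were called higher and 8.67% lower. The median difference was 0.42 over the 36 members and -0.03 over all genes tested. The difference in log2 change was 1.70 for MMP14 (SE 0.20, adjusted p = 1.01e-04), 1.93 for ADAM19 (SE 0.22, adjusted p = 9.06e-05) and 1.96 for ADAMTS6 (SE 0.31, adjusted p = 5.83e-04). For ADAM12 it was 1.27 (SE 0.48, adjusted p = 0.0533), which was not called. The hairpin groups and their control had been transduced and selected and the drug groups had not, and this difference between the experiments cannot be told apart from the kind of agent.

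Regulators of these families were read from a list of 34 genes, 33 of which were matched and 25 tested. In shEZH2 2 were called higher and 3 lower (median log2 change -0.04), in shE2F1 5 were higher and 3 lower (median 0.01), and in GSK126 0 were called. Of all genes tested, 7.52% were higher and 10.7% lower in shEZH2 and 5.6% and 5.96% in shE2F1, so that 2 and 3 of 25 in shEZH2 were near the shares over all genes. The 5 and 3 of 25 in shE2F1 lay above the shares there. Among the 5, PCSK5 passed the filter on low counts only through shE2F1, with 1 and 0 counts in control and 16 and 16 in shE2F1. FURIN, the convertase that activates the membrane-type MMPs and many ADAMs, stood at 96.8 and 97.5 CPM in control, 140 and 153 CPM in shEZH2 and 37.1 and 36.5 CPM in shE2F1. Its log2 change was 0.58 in shEZH2, under 2-fold, and -1.41 in shE2F1, where it was called. PLAU, or urokinase, which starts the plasmin route of MMP activation, stood at 318 and 307 CPM in control and 42.3 and 36.5 CPM in shE2F1 (log2 change -2.99, called), and at 249 and 318 CPM in shEZH2 (log2 change -0.15). TFPI2, a matrix-bound inhibitor of plasmin and other proteinases, was called lower in shEZH2 (log2 change -1.23) and higher in shE2F1 (2.48). RHBDF2, or iRhom2, which carries ADAM17 to the cell surface, was called lower in shEZH2 (log2 change -1.55), while ADAM17 was higher.

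Of 24 substrates that ADAMs shed, 22 were tested, of which 5 were called higher and 1 lower in shEZH2 (median log2 change 0.16) and 4 higher and 0 lower in shE2F1 (median 0.10), beside 7.52% higher and 10.7% lower of all genes in shEZH2 and 5.6% and 5.96% in shE2F1. The EGF receptor ligand AREG was called higher in both knockdowns, with log2 changes of 1.46 and 1.37. It stood at 51.5 and 43.8 CPM in control and at 155 and 134 CPM in DMSO. No other ligand of the EGF family in the list was called in either knockdown. In shEZH2, the neuregulin NRG1 was lower under 2-fold (log2 change -0.81, adjusted p = 2.01e-04, edgeR). EREG was at -0.72, HBEGF at 0.11 and TGFA at 0.12 there. IL6R was higher in shEZH2 (log2 change 2.53) and the TNF receptor TNFRSF1A was lower (-1.23). TNF itself did not exceed 0.54 TPM. Of the 9 AP-1 subunits, all tested, 3 were called higher and 1 lower in shEZH2 (median 0.32), and 3 higher and 2 lower in shE2F1 (median -0.27), beside the same shares over all genes. FOSL1, the most abundant of them at 304 to 717 TPM, was called lower in shE2F1 (log2 change -1.20). FOSL2 was called lower in shEZH2 and shE2F1 (-1.03 and -1.03), and ATF3 (3.06 and 2.01) and JUNB (1.26 and 1.25) were called higher in both. JUND was called higher in shEZH2 (1.16) and FOSB in shE2F1 (1.72). For ATF3, JUNB, JUND and FOSB, both control libraries lay below both DMSO libraries, and for FOSL1 and FOSL2 they lay above. ATF3 stood at 4.77 and 6.24 CPM in control, 21.7 and 22.9 CPM in shE2F1 and 21.6 and 24.2 CPM in DMSO. The experiments differ in transduction and selection, and no test between their controls was made.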

How the data were processed

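Libraries were grouped and numbered by their labels. Among 18 records, 8 held the same values as another one, which left 10 libraries. The libraries were made with a kit that marks strand. Per the study's methods, reads were mapped with STAR to hg38 with Ensembl release 108 and quantified per gene with RSEM, which divides a read between genes it could come from. The submitters' processing notes name STAR 2.7.2b and RSEM 1.3.1. The deposited files hold RSEM expected counts, TPM and a posterior SD of the count, which the authors' files give as a score of mapping uncertainty and which was at most 0.76 counts for any member. Whether counting used strand is not given in the sources used here, and 15 members overlap another protein-coding gene.

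Expected counts were rounded and tested in R 4.3.3 with edgeR 4.0.16 (filterByExpr, TMM, quasi-likelihood F-test, p-values adjusted by Benjamini-Hochberg across every tested gene). The 6 knockdown libraries shared a model, the 4 drug libraries had their own, and the difference of effects was fitted in all 10, with no covariate. Calls needed an adjusted p under 0.01 and over 2-fold, as in the study. DESeq2 1.42.0 was an alternative. TPM were used for levels only. Standard errors were derived from the F statistic. Libraries held 13198932 to 20055550 counts. Symbols and coordinates are from GENCODE release 44, in which 62625 (99.9%) of the gene identifiers were found. The pipeline was tested on simulated data.

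Members and lists were chosen with earlier results of these data known. Named with values were MMP1, MMP2, MMP9, MMP14, ADAM10, ADAM17, ADAM19 and the 4 TIMPs, the 12 members with the highest mean TPM, and members called in any comparison with a mean of at least 1 TPM in a group. Called members under that level are given by counts. The alternatives were DESeq2, its size factors, other filters and thresholds, fits of fewer or more libraries, a block for the replicate number, an offset per library from splines of GC content and length, members without overlaps, and leaving out each replicate in turn. Amino acid sequences were not used here.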

Additional observations from a re-analysis of the deposited data

Results flagged for a closer look

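The effect of the EZH2 hairpin differed from that of the EZH2 inhibitor in 7 members, by the test of the difference between both effects (edgeR, all 10 libraries, adjusted p under 0.01 and over 2-fold). Of the 36 members tested, 16.7% were called higher and 2.78% lower, against 5.13% and 8.67% of all 15773 genes tested. The difference in log2 change, shEZH2 minus GSK126, was 1.70 for MMP14, 1.49 for ADAM17, 1.93 for ADAM19, 1.96 for ADAMTS6, 1.08 for ADAMTS9, 1.20 for ADAMTS16 and -1.38 for ADAM15. The call of ADAMTS9 (adjusted p = 0.00822) was lost under 7 of 15 alternatives, and that of ADAM15 was lost with the offset for GC content and length, where its difference was -0.91. The other 5 were called under all 15 alternatives. The groups hold 2 libraries each, so no library was tested for standing apart from its group.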

How the results depend on the processing

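No call of a named member changed direction: of 499 alternative values of 38 called changes, 442 kept the call and 57 lost it, and 22 changes were called under every alternative run. Among changes that were not called, the offset for GC content and length turned TIMP1 in shEZH2 to 0.24 (0.23 with the block), ADAM10 in shEZH2 to -0.26 (-0.26 with the block) and TIMP1 between the knockdowns to 0.12 (0.11 with the block). ADAM10 in shE2F1 ran from -0.026 to 0.12 and MMP14 in GSK126 from -0.20 to 0.068 when replicates were left out.

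At an adjusted p under 0.05 with no fold requirement, 22 of 34 members were called in shEZH2, 15 of 34 in shE2F1 and 23 of 34 between the knockdowns. For the difference between hairpin and inhibitor it was 14 of 36. Of all genes, 8550, 6879 and 9267 of 15373 were called in the first 3 comparisons and 5780 of 15773 in the last. The member counts in shE2F1 and for the difference between hairpin and inhibitor were thus near the shares over all genes. Those in shEZH2 and between the knockdowns were somewhat above them. Counting members without overlapping genes gave 3 in shE2F1 and 4 for the difference between hairpin and inhibitor. A filter on a mean of 50 counts gave 9 between the knockdowns, where fewer members were tested, and no filter gave 11 for hairpin against inhibitor. Leaving out 1 library gave 9 to 13 calls in shEZH2, 4 to 8 in shE2F1 (8 without Control shRNA replicate 2), 8 to 11 between the knockdowns (8 without shE2F1 replicate 1, 9 without shE2F1 replicate 2 or shEZH2 replicate 2), 0 to 0 in GSK126 and 6 to 9 for hairpin against inhibitor. With the offset, 15 members were called higher and 0 lower in shEZH2. The shares of all genes called higher and lower with the offset are not given here, so this count has nothing to be set against. Over all genes, the counts called at an adjusted p under 0.05 with no fold requirement were 8550 in shEZH2 (2803 with the main thresholds), 6879 in shE2F1 (1777), 9267 between the knockdowns (3582) and 5780 for hairpin against inhibitor (2176), and the last was 1305 without shEZH2 replicate 2. In GSK126, where edgeR called 0 genes, DESeq2 called 11, the block 68, the block with the offset 75, and fits without 1 library 37 to 43. The cause of these shifts was not tested.

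With the replicate number as a block, 12 members were called in shEZH2, 5 in shE2F1, 15 between the knockdowns, 9 for hairpin against inhibitor and 1 in GSK126, also 1 with the offset. In GSK126 the block passed 9 members at an adjusted p under 0.01 with no fold requirement, chosen after seeing the data. Differences between replicates correlated at r = 0.66 across 11919 genes between DMSO and GSK126 and at -0.08 to 0.20 between other groups, and the labels do not say that a number marks a shared culture. Groups of 2 libraries limit precision most for members with few counts, such as ADAMTS1, ADAMTS8, MMP25, MMP28 and TIMP4.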

Other observations

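MMP13 and ADAMTS7, which lie outside the rule for named genes, were picked after their values were seen. MMP13, a collagenase of the chromosome 11 cluster, had 1 and 3 counts in DMSO and 11 and 10 counts in GSK126, and 0 or 1 counts in each of the 6 libraries of the knockdown experiment. It passed the filter on low counts only through GSK126, the group where it was higher. Its unadjusted p was 0.0118 and its adjusted p was 1.00 (edgeR). ADAMTS7 had 40 and 40 counts in DMSO and 63 and 68 in GSK126, with an unadjusted p of 0.0118 and an adjusted p of 1.00.

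Levels in the control groups of both experiments can be set side by side, for members chosen after their values were seen. ADAM15 stood at 159 and 156 TPM with Control shRNA and 99.3 and 131 TPM with DMSO, ADAM8 at 38.5 and 28.5 TPM and at 55.5 and 57.6 TPM, and ADAM17 at 19.99 and 16.8 TPM and at 30.3 and 23.9 TPM. These groups differ in transduction and selection, and no test between them was made.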
